A study of Mus musculus with 11 samples.

Results

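Ion channels let calcium, sodium and potassium cross the cell membrane, and the 134 genes described here encode most of the voltage-gated ones together with their accessory subunits and near relatives. They were chosen by symbol alone, as all protein-coding genes whose names begin with Cacna, Cacnb, Cacng or Kcn, or with Scn and a digit, out of 21830 protein-coding genes in the quantified annotation. The set held 94 potassium channel genes, 26 calcium channel genes and 14 sodium channel genes. Their RNA was measured by bulk sequencing in KP1, a mouse small cell lung cancer (SCLC) line that is mutant for Rb and p53 and was kept in culture. Both groups carried these mutations and differed by label in treatment alone. Control replicates 2 and 3 were untreated, and irradiated replicates 1, 2 and 3 were collected 24 h after a dose of 5 Gy. No source states that the libraries of a group came from separate cultures, so the p values measure the spread between these libraries, which may be technical.

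In excitable cells, voltage-gated channels carry a sensor that moves with the membrane potential and opens a pore. Calcium channels couple depolarization to secretion, sodium channels drive the upstroke of the action potential, and potassium channels repolarize the membrane or hold it at rest. SCLC cells are neuroendocrine cells that secrete peptides and can be electrically excitable. The name of the set is wider than its biology, because 29 members (the inward rectifiers Kcnj and the two-pore channels Kcnk) encode potassium channels with no voltage sensor, and most genes of the Cacng family encode partners of glutamate receptors rather than of calcium channels.

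The 9 neuroendocrine markers fitted the KP1 label. They summed to 2919 and 3162 TPM (an abundance per transcript length, with the same total in each library) in the control libraries and to between 2957 and 3190 TPM in the irradiated libraries. Uchl1, a ubiquitin hydrolase of neurons and neuroendocrine cells, ranged from 451 to 1060 TPM. Markers of other cells were low or were carried by 1 gene. The 4 leukocyte markers summed to 4.55 and 6.78 TPM in control and to between 1.19 and 1.62 TPM in irradiated libraries, and Adgre1 and Cd3e were at 0 in both controls. The 4 fibroblast markers summed to between 36.7 and 67.4 TPM over the 5 libraries. Most of it was Pdgfra (36.6 to 56.7 TPM), but control replicate 2 also held Col1a1 at 13.5 TPM, which was between 0.0249 and 0.104 TPM in the other libraries, while Dcn was at 0 in both controls. The 3 glial markers summed to between 53.1 and 83.0 TPM, almost all of it Mbp. The 3 endothelial and the 4 muscle markers summed to under 2 TPM in every library, and Myh6 was at 0 in all 5. The part of other cells in the results below was not tested. In bulk RNA, fewer cells that express a gene and less RNA per cell cannot be told apart.

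Potassium channel pores share 1 short stretch, the selectivity filter, whose backbone oxygens replace the water around a potassium ion. A search of the translated coding sequences for a serine or threonine, then valine, isoleucine or leucine, then glycine, then tyrosine, phenylalanine or leucine, then glycine found this stretch in 77 of 77 genes for potassium pores and in 0 of the 57 others, which encode calcium and sodium channels and accessory subunits. Among all 21866 coding genes searched, 1.32% held it. Of the 14 two-pore genes, 12 held it at 2 places, and the class is named for its pair of pore loops. The coding strand around the filter is shown for 4 members on which the results turn, from GENCODE M21 transcripts on GRCm38, with the 5 codons of the filter in capitals. They are a Shab-type, an EAG-type, a calcium-activated and an inwardly rectifying channel.
Kcnb2 (chr1:15710022-15710084, plus strand): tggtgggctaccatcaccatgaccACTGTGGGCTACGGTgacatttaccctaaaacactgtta
Kcnh7 (chr2:62777319-62777381, minus strand): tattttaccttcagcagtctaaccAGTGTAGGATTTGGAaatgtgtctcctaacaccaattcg
Kcnma1 (chr14:23528389-23528451, minus strand): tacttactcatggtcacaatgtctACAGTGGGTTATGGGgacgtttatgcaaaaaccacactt
Kcnj6 (chr16:94832753-94832815, minus strand): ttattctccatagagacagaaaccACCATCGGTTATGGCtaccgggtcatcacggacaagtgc
For 0 of the 85 genes tested did another gene match the main transcript at 95% identity over 80% of its length, and for 3 (Kcnj3, Kcnj14 and Kcnmb4) at least 1 did so over more than 20%. Exons of many members overlap genes on the opposite strand, among them Kcnh7, Kcnma1, Kcnj6, Kcnj3, Kcnq5, Cacnb2, Cacng2, Cacna1h and Cacna1a. The matches of Kcnj3 and Kcnmb4 were to such overlapping genes. Whether reads were assigned by strand is not given in the sources used here.

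KP1 cells expressed a broad set of channels. In both control libraries 55 of the 134 genes exceeded 1 TPM and 30 exceeded 10 TPM, whereas 17 genes had no read in any library and 23 had under 3 reads in each, the floor taken for detection. After edgeR's filter on low counts, 85 members were tested. The other 49 had at most 25 reads in any library and included most Shaker-type potassium channels (Kcna), the muscle calcium channel gene Cacna1s, the retinal calcium channel gene Cacna1f and the sodium channel genes Scn4a, Scn7a, Scn10a and Scn11a. All channel genes together took between 0.283% and 0.354% of the reads of a library.

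Abundant members included Cacnb3, a calcium channel β subunit that brings the pore to the membrane, at 170 and 110 TPM in control and 79.2, 83.2 and 92.1 TPM in irradiated libraries, and Cacng7, a partner of AMPA-type glutamate receptors, at 51.5 and 119 TPM in control and 88.6, 98.1 and 89.0 TPM in irradiated libraries. Their ranges overlapped, so that no order between Cacnb3 and Cacng7 can be read. The plot of abundant channel genes shows the spread of each gene over the libraries.

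**Figure D1:**
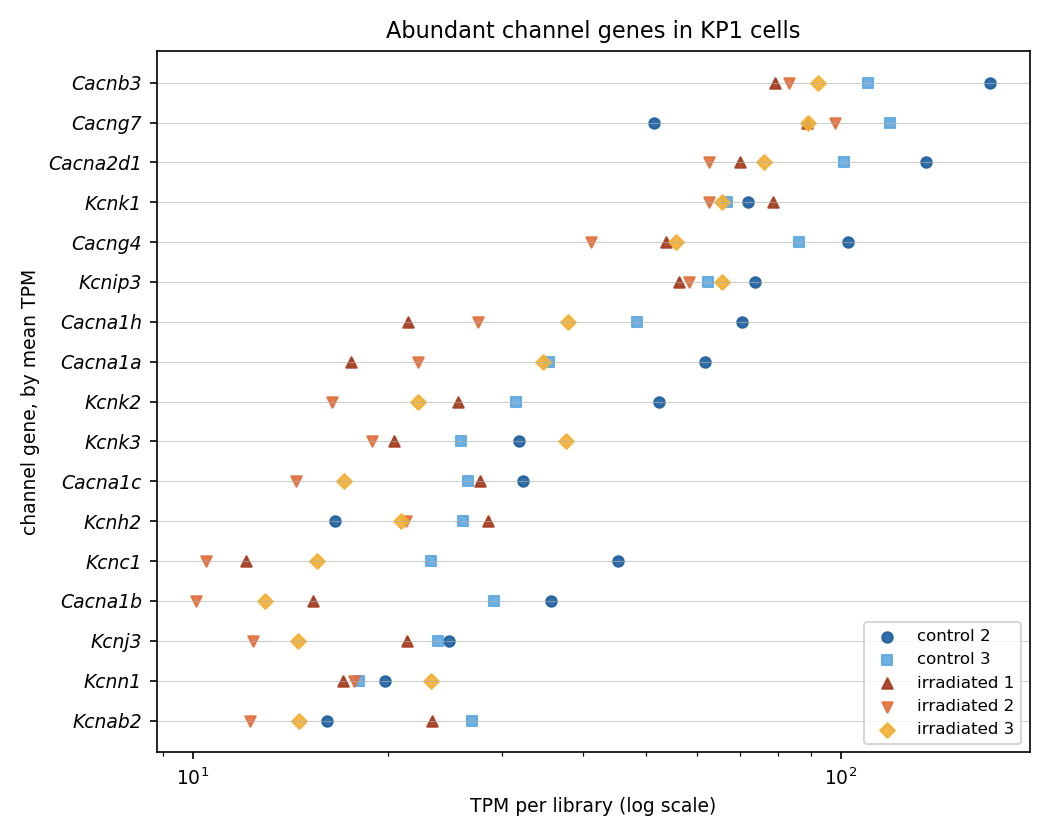
TPM of 17 of the 20 most abundant channel genes, 1 point per library on a log scale, with 2 control and 3 irradiated libraries, ordered by mean TPM. Cacnb3 lies between 79.2 and 170 TPM, and Cacng7 in control replicate 2 (51.5 TPM) lies apart from its other libraries.

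Calcium channels of several classes were present together. Among the pore genes, Cacna1h, a T-type channel that opens near rest, averaged 59.4 TPM in control. Cacna1a (P/Q-type) averaged 48.6 TPM, Cacna1b (N-type) 32.4 TPM and Cacna1c (L-type) 29.5 TPM. Cacna1a had 61.62 and 35.48 TPM in control replicates 2 and 3, on 1926 and 1698 reads. In these libraries Cacna1b had more reads (3128 and 2005), as did Cacna1c (3720 and 2613). Reads thus gave the reverse of the TPM order. Transcript lengths, averaged over reads, were 7501 bases for Cacna1a, 8824 for Cacna1b and 9017 for Cacna1c. The main transcript of Cacna1a, Cacna1a-201 (7926 bases), held 1800 and 1307 of its reads in control replicates 2 and 3. It held only 15.01 and 12.03 of its TPM there. The control mean of 48.6 TPM for Cacna1a therefore rested mostly on transcripts with the smaller part of its reads. No order among Cacna1a, Cacna1b and Cacna1c can be read. P/Q-type and N-type channels trigger transmitter release in neurons, and Cacna1c is best known from heart and smooth muscle. Cacna2d1, the α2δ subunit that gabapentin binds, was also abundant among the accessory genes, at 135.5 and 101 TPM in control and 69.8, 62.6 and 76.0 TPM in irradiated libraries.

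Sodium channels were expressed at lower levels, led by Scn8a with 31.6 and 26.9 TPM in control and 9.92, 11.01 and 11.97 TPM in irradiated libraries, and by its relative Scn3a with 22.2 and 14.4 TPM in control and 8.52, 8.66 and 13.6 TPM in irradiated libraries. Scn8a encodes the main channel of mature axons and Scn3a one of immature neurons. Of the sodium β subunits, Scn3b was the sole one tested, at 19.6 and 9.12 TPM in control and between 5.70 and 8.14 TPM in irradiated libraries.

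TPM is a share of a library and is not scaled between libraries. Over 12470 tested genes with a mean above 1 TPM, the median log2 ratio of irradiated to control TPM was −0.28, and over the 61 channel genes among them it was −0.69. Irradiated and control libraries were therefore compared on estimated read counts, by the quasi-likelihood test of edgeR, with TMM scaling, which sets libraries to a common level on the bulk of their genes. Levels in the comparison are given as CPM (counts scaled to the size of a library) after that scaling, which is not divided by transcript length.

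The comparison was made in 2 ways, because the libraries had sampled transcripts of different length. Averaged over reads, the transcript length was 5463 and 4729 bases in control and 3715, 3625 and 3998 bases in irradiated libraries. Channel transcripts were long, with a median of 4191 bases over the 85 members tested against 2895 bases over all 14106 genes tested. The second comparison added an offset, a spline that removes each library's trend of counts with transcript length. Length sampling and irradiation fell on the same libraries and cannot be told apart as the origin of that trend.

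Without the offset, 15 channel genes were lower and 1 was higher after irradiation at an adjusted p under 0.05 (edgeR's quasi-likelihood test, adjusted by Benjamini-Hochberg over all genes tested). Those 15 were 17.6% of the tested members, where 13.0% of all genes were lower, and the single higher gene was 1.18%, where 12.7% of all genes were higher. At the study's fold threshold as well, a log2 fold change beyond 1.5, 2 members were lower (1.9% of all genes were) and 1 was higher (1.63% of all genes were). These 3, Cacna2d4, Kcnk6 and Kcnu1, passed the filter on low counts only through the group in which they were high, so that nothing about the set can be read from their number. The median log2 fold change of the tested members was −0.30, with 56 below 0 and 29 above, and that of all tested genes was 0.02. The comparison was also run with control replicate 2 left out. Without it, which leaves 1 control assumed to vary like the irradiated libraries, edgeR called 0 members lower after adjustment and 10 of 91 at an unadjusted p under 0.05, where 12.1% of all genes were. Of the 16 members called, 6 kept the call without irradiated replicate 1, 4 without irradiated replicate 2 and 12 without irradiated replicate 3. The share of all genes called in these fits is not given here, so a general loss of power cannot be told from a change in the channels.

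With the offset, edgeR called 3 channel genes lower, where 1.69% of all genes were lower, and 0 higher, where 2.35% of all genes were higher. At an unadjusted p under 0.05 the numbers were 10 and 8, where 11.7% of all genes were lower and 15.9% higher. The median log2 fold change of the members was then 0.053 and that of all genes 0.045, with 34 members below 0 and 51 above. Of the 15 genes called lower without the offset, 12 lost the call with it. With offsets from Salmon's effective lengths in place of the spline, 13 members were lower, where 9.86% of all genes were. Of these, 12 were among the 15, Cacng2, Kcnh5 and Kcnq3 lost the call, and Cacna1b gained it (adjusted p = 0.0169 by edgeR). With effective lengths the log2 fold change was −1.60 for Kcnma1, −1.09 for Kcnc1, −0.81 for Kcnb2, −1.17 for Kcnh7 and −1.07 for Scn8a. That of Kcnq3 was −0.52. For single genes below, the offset always means the spline.

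The libraries can also be set side by side without a model. In 35 of the 85 tested members all 3 irradiated libraries lay below both controls (41.2%, where 29.3% of all genes did so), and in 7 they lay above both (8.24%, where 30.1% of all genes did). In CPM adjusted by the length offset, the irradiated libraries lay below in 18 members (21.2%, where 19.6% of all genes did) and above in 15 (17.6%, where 26.8% of all genes did). Among the 85, 6 passed the filter on low counts only through the controls and 4 only through the irradiated libraries. For such genes the order of the groups is partly set by the filter, so nothing can be read from their part in these counts. For 1 gene alone, an exact two-sided permutation test of 2 against 3 libraries has a smallest p of 0.1, and the model's lower p values come from pooling the spread over genes.

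**Figure D2:**
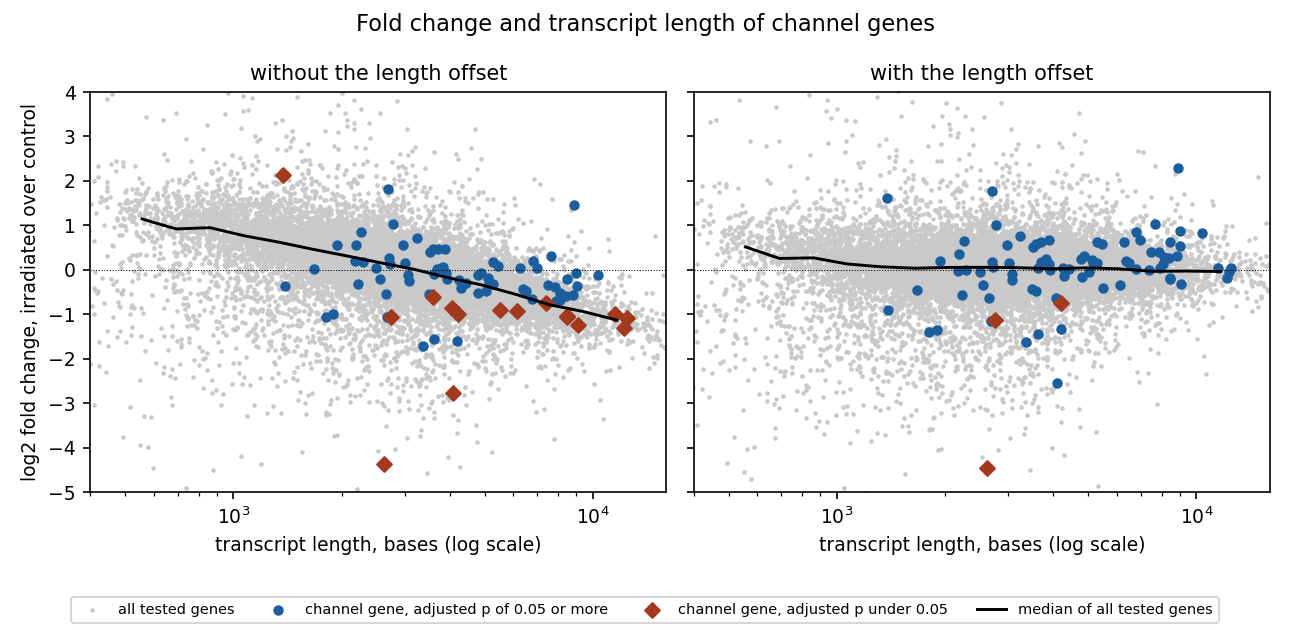
Log2 fold change of irradiated over control against transcript length in bases (log scale), without (left) and with (right) the length offset. Each point is a gene, black lines are medians of all tested genes in length bins, and a few genes beyond the axes are not drawn. Diamonds mark 16 channel genes past the threshold on the left and 3 on the right, and the line slopes down with length on the left but not beyond the shortest genes on the right.

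Channel genes were set beside other genes of like length. Among the 16 members with transcripts of 8000 bases or more, 6 were lower and the median log2 fold change was −0.64, whereas 67.5% of all 554 genes of this length were lower and their median was −1.003. Among the 12 members of 6000 to 8000 bases, 2 were lower and the median was −0.41, against 54.3% lower and a median of −0.70 for all genes of this length. From 4000 to 6000 bases, 4 of 17 members were lower and the median was −0.32, against 20.6% and −0.33 for all genes. In the bin from 2000 to 4000 bases, 3 of 34 members were lower and the median was 0.05, against 5.15% and 0.07 for all genes. The 6 members under 2000 bases lay on the other side of their peers, with a median of −0.18 against 0.57 for all genes, and 0 of them were lower and 1 higher, against 2.32% and 32.9%. The higher one was Kcnu1, which passed the filter on low counts through the irradiated libraries alone. Another passed it through the controls alone, on at most 25 reads in a library. With the offset, the median of the longest members was 0.20 and that of all genes as long was −0.04, whereas the shortest members had −0.69 and all genes as short 0.089. These differences between members and other genes were not tested. Across the 85 members, Spearman's rho between log2 fold change and length was −0.33 without and 0.27 with the offset, and across all genes it was −0.57 and −0.05. These values are descriptions over genes of the same 5 libraries.

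Of the 4 tested KCNQ genes, 2 were lower without the offset, both with long transcripts. Of all genes 13.0% were lower, with 54.3% of those of 6000 to 8000 bases and 67.5% of those of 8000 bases or more. Members of this family form the M-current, which damps repetitive firing in neurons. Kcnq3, with 11518 bases, had 10.3 and 9.08 CPM in control and 4.22, 3.88 and 6.34 CPM in irradiated libraries. Kcnq3 was lower by the test without the offset, at a log2 fold change of −1.003 ± 0.30 (SE, adjusted p = 0.041 by edgeR), and was at 0.04 ± 0.26 with it. Kcnq5, with 6144 bases, had 10.6 and 10.8 CPM in control and 5.66, 5.07 and 6.12 CPM in irradiated libraries, and its log2 fold change went from −0.93 (adjusted p = 0.0262 by edgeR) to −0.35 with the offset. In both genes every irradiated library lay below both controls in CPM. Kcnq1, the cardiac member, was not tested for want of reads.

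Channels of the Shaker to Shal type open on depolarization and shape the action potential. Among them 3 of 9 tested genes were lower, where 13.0% of all genes were. Kcnc1, a Shaw-type channel of fast-spiking neurons, had 109 and 72.9 CPM in control and 55.0, 45.0 and 63.4 CPM in irradiated libraries. Its log2 fold change of −0.74 (adjusted p = 0.038 by edgeR) became 0.01 with the offset. Kcnb2, a Shab-type delayed rectifier with the longest transcript of any tested member (12458 bases), had 36.0 and 27.8 CPM in control and 15.8, 13.1 and 16.1 CPM in irradiated libraries. It moved from −1.09 (adjusted p = 0.0103 by edgeR) to 0.04 with the offset, and its length-adjusted CPM of 19.1 and 20.6 in control and 21.4, 19.9 and 19.8 in irradiated libraries overlapped.

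The EAG family, relatives of the cardiac hERG channel, held log2 fold changes of both signs. Kcnh7 had 76.2 and 53.7 CPM in control and 22.4, 25.4 and 31.0 CPM in irradiated libraries, and fell by 1.30 on the log2 scale (SE 0.21, adjusted p = 0.00919 by edgeR). With the offset its value was −0.18 (adjusted p = 0.459). Kcnh5 had 47.7 and 28.0 CPM in control and 19.7, 19.3 and 23.5 CPM in irradiated libraries, with log2 fold changes of −0.86 (adjusted p = 0.033 by edgeR) without and −0.64 (adjusted p = 0.119) with the offset. Kcnh2, the mouse counterpart of hERG, had 33.1 and 29.8 CPM in control and 51.2, 40.5 and 39.4 CPM in irradiated libraries, and its log2 fold change of 0.47 missed the threshold (adjusted p = 0.079 by edgeR).

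All 3 irradiated libraries of Kcnh2 thus lay above both controls, yet its log2 fold change of 0.47 (adjusted p = 0.079 by edgeR) and of 0.67 with the offset (adjusted p = 0.0647) missed the threshold. In length-adjusted CPM its groups were 30.8 and 27.3 against 55.0, 43.4 and 40.1.

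Of the 6 tested calcium- and sodium-activated channels, Kcnma1 was lower and Kcnu1 higher, where 13.0% of all genes were lower and 12.7% higher. Kcnma1 encodes the BK channel, which opens on calcium entry and depolarization together, and had 19.8 and 15.1 CPM in control and 9.68, 6.26 and 9.21 CPM in irradiated libraries. Its log2 fold change of −1.06 (adjusted p = 0.023 by edgeR) became −0.22 with the offset. Kcnu1, a relative of BK known from sperm, had 8 and 11 reads in control and 36, 38 and 40 reads in irradiated libraries.

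Kcnu1 was the single channel gene past the threshold upwards, at 2.14 ± 0.62 (SE, adjusted p = 0.0382 by edgeR), and its value with the offset was 1.61 (adjusted p = 0.129). It passed the filter through the irradiated libraries alone, so its p values cannot be read as support for a rise. Of its reads, 86.7% were assigned to Kcnu1-202, a short transcript of 1446 bases. The small-conductance channel genes Kcnn1 and Kcnn3, which calcium opens through calmodulin, had log2 fold changes of 0.26 and −0.47 and neither passed the threshold. Of the reads of Kcnn3, 66.7% were assigned to Kcnn3-202, a retained-intron transcript.

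Inward rectifiers and two-pore channels set the resting potential. Kcnj6, a G protein-gated inward rectifier (GIRK2), had 33.1 and 22.2 CPM in control and 12.5, 11.6 and 15.6 CPM in irradiated libraries. It fell by 1.06 on the log2 scale (SE 0.23, adjusted p = 0.0165 by edgeR) and, with a transcript of 2749 bases, was also lower with the offset at −1.13 ± 0.24 (adjusted p = 0.0444). Both of its main coding transcripts, of 3097 and 2362 bases, had fewer estimated reads in every irradiated library than in either control. Kcnj3, its GIRK1 partner, had 46.7 and 38.9 CPM in control and 39.9, 31.3 and 33.3 CPM in irradiated libraries, with a log2 fold change of −0.30 (adjusted p = 0.23). The difference between Kcnj6 and Kcnj3 was not tested.

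Among two-pore leak channels, Kcnk6 (TWIK2) was lower on few reads, with 22 and 34 in control and 3, 2 and 6 in irradiated libraries. The log2 fold change was −2.77 ± 0.75 (SE, adjusted p = 0.0304 by edgeR) and −2.55 with the offset (adjusted p = 0.0801). The gene passed the filter through the control libraries alone, so its p values cannot be read as support for a fall. Its abundant relative Kcnk1 (TWIK1), with 76.7 and 66.2 CPM in control and 91.4, 78.2 and 76.6 CPM in irradiated libraries, had a log2 fold change of 0.20 (adjusted p = 0.367). Kcnk2 (TREK1) and Kcnk3 (TASK1), mechano- and acid-sensitive leak channels, had values of −0.55 and 0.05 and missed the threshold.

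**Figure D3:**
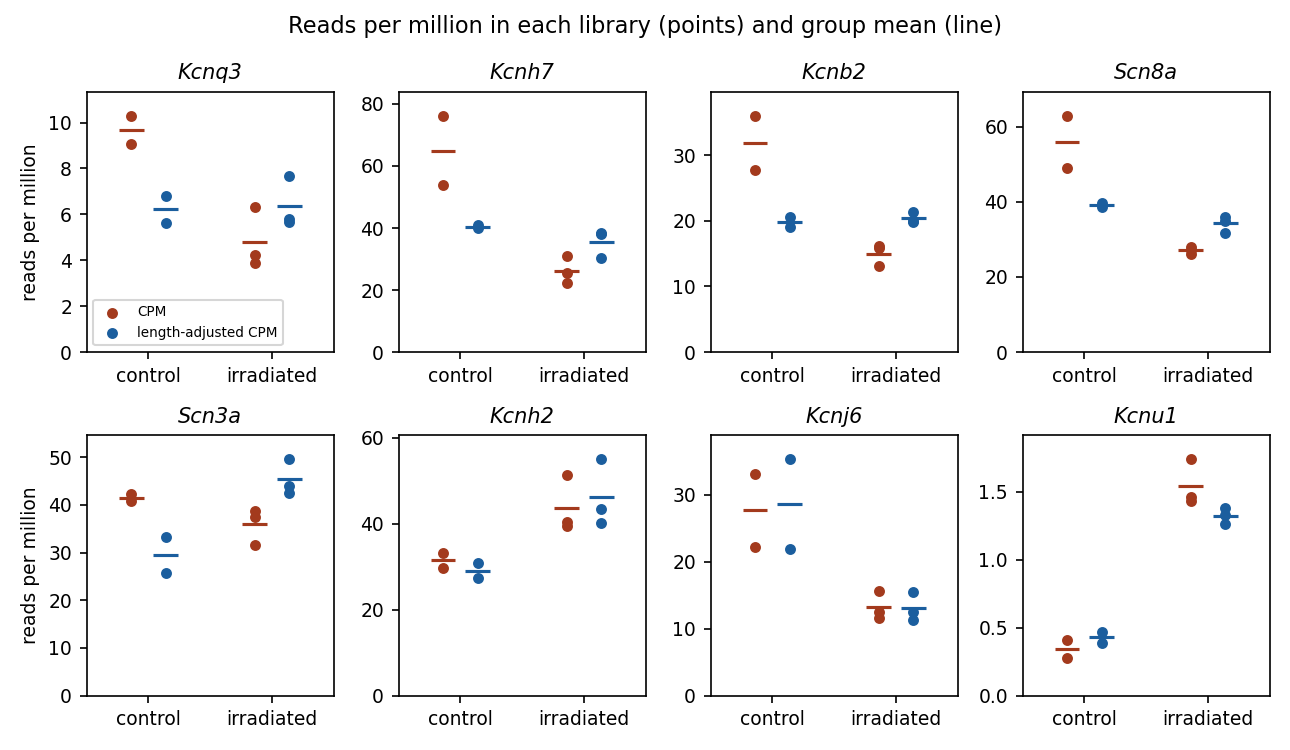
CPM in each control (2) and irradiated (3) library for 8 channel genes, before and after adjustment by the length offset, with lines at group means. The gap between groups in Kcnq3, Kcnh7, Kcnb2 and Scn8a narrows or closes after the adjustment, that in Kcnj6 stays, and in Scn3a the irradiated libraries pass from below to above the controls.

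Of the 8 tested calcium pore genes, 1 was lower, where 13.0% of all genes were, and it was a minor one. Cacna1e (R-type) had 5.43 and 4.09 CPM in control and 2.59, 1.64 and 1.82 CPM in irradiated libraries, at a log2 fold change of −1.24 (adjusted p = 0.0465 by edgeR) without and −0.33 with the offset. Of its reads, 61.9% and 70.7% in control and 70.7%, 83.7% and 88.1% in irradiated libraries were assigned to coding transcripts. The retained-intron transcript Cacna1e-204 had 51 and 24 estimated reads in control and 1, 4 and 3 in irradiated libraries. The abundant Cacna1h had 206 and 152 CPM in control and 106, 120 and 146 CPM in irradiated libraries, with −0.53 (adjusted p = 0.0755), and Cacna1a had −0.34 (adjusted p = 0.106). Both changed sign with the offset, to 0.29 and 0.41 (adjusted p = 0.221 and 0.13), and neither passed the threshold either way. Over the 8 genes the median was −0.37 without and 0.41 with the offset.

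Cacna1c was uneven among the irradiated libraries, at 130 and 98.1 CPM in control and 126, 64.8 and 77.2 CPM in irradiated libraries, with irradiated replicate 1 in the range of the controls. Scn9a (9.16 CPM in irradiated replicate 1, 2.06 and 2.95 in the others) and Cacna2d3 (39.3 CPM against 18.7 and 20.4) were highest in the same library. The groups of these 3 genes overlapped and none passed the threshold.

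Accessory calcium channel genes gave 3 of the lower calls. They were 1 of 4 tested β genes, 1 of 6 γ genes and 1 of 4 α2δ genes, where 13.0% of all genes were lower. Cacnb2, a β subunit important in the heart, had 24.2 and 22.0 CPM in control and 15.2, 15.8 and 14.7 CPM in irradiated libraries, narrow ranges that did not overlap. Its log2 fold change was −0.60 (adjusted p = 0.0393 by edgeR) without and −0.48 (adjusted p = 0.111) with the offset. Cacng2 (stargazin), which brings AMPA receptors to synapses, had 85.0 and 50.9 CPM in control and 27.9, 36.5 and 44.1 CPM in irradiated libraries, with −0.91 (adjusted p = 0.0351 by edgeR) and −0.41.

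Cacna2d4, an α2δ subunit of retinal photoreceptors, had 28 and 24 reads in control and 2, 1 and 0 in irradiated libraries. From those 52 against 3 reads, the ratio of irradiated to control was 0.0428 (exact 95% interval 0.00854 to 0.132, counting error alone). The adjusted p was 0.0169 by edgeR without and 0.047 with the offset. The gene passed the filter through the controls alone, so a low irradiated level was partly a condition of its being tested. The interval and the p values therefore cannot be read as support for a fall. Of its control reads, 0% were assigned to coding transcripts. All were placed on Cacna2d4-208, a processed transcript of 2578 bases that encodes no protein.

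Of the 6 tested sodium pore genes, Scn8a alone was lower, where 13.0% of all genes were. It had 62.9 and 48.9 CPM in control and 27.3, 26.0 and 28.0 CPM in irradiated libraries, a gap wide against the spread of either group, and its log2 fold change was −1.05 ± 0.16 (SE, adjusted p = 0.00919 by edgeR). With the offset the value was −0.19 (95% interval −0.50 to 0.11, adjusted p = 0.381). Scn3a has a transcript of nearly the same length (8459 against 8470 bases) and had 40.8 and 42.2 CPM in control and 38.8, 31.7 and 37.5 CPM in irradiated libraries.

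Scn3a therefore gave −0.20 (adjusted p = 0.361) without and 0.62 ± 0.16 (SE, adjusted p = 0.065) with the offset, and the difference between these sodium channels of like length was not tested. Scn3a lies on chromosome 2 beside Scn2a, Scn1a and Scn9a, all of them tested, and the log2 fold changes of these 3 neighbours were −0.19, 0.04 and −0.06 on at most 9.16 CPM.

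**Figure D4:**
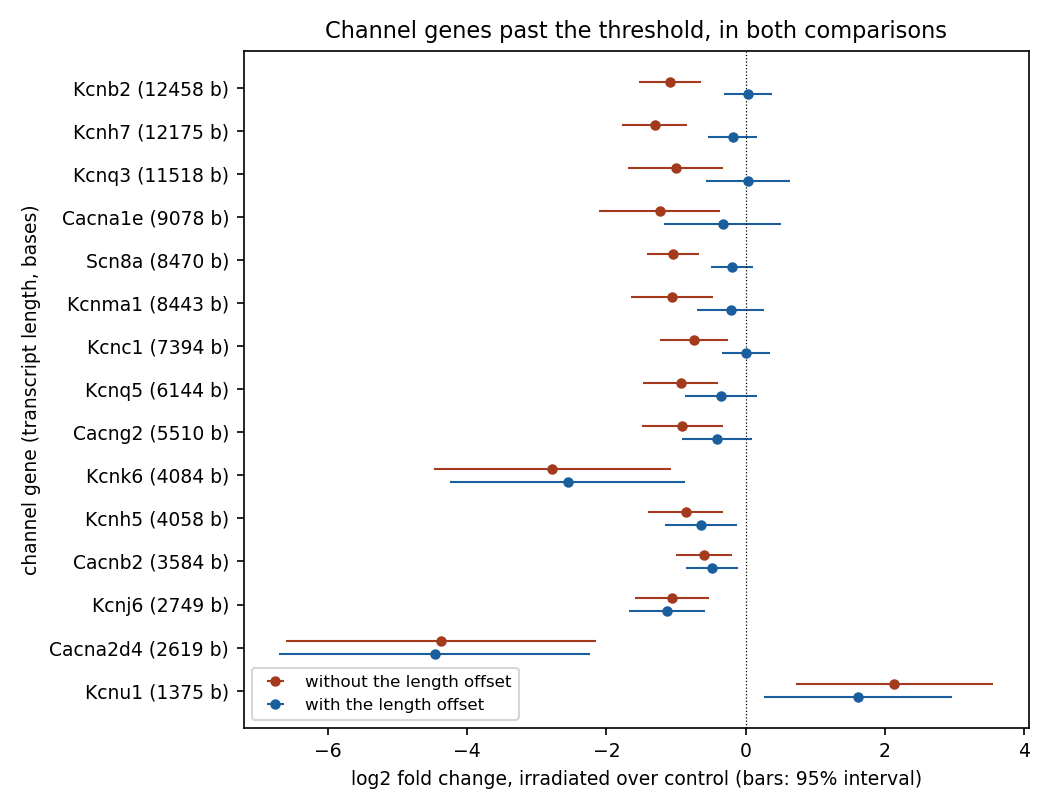
Log2 fold change (irradiated over control) with 95% intervals for 15 of the 16 channel genes past the threshold, ordered by transcript length, without and with the length offset. The 8 genes with transcripts above 6000 bases move towards 0 with the offset and their intervals then include 0. Those of Kcnj6 and Cacna2d4, which were called both ways, do not include 0. The same holds of some genes that lost the call with the offset, among them Cacnb2, Kcnh5 and Kcnu1. Cacna2d4 and Kcnu1 passed the filter on low counts only through the group in which they were high.

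Within single genes, long and short transcripts did not differ in 1 direction. Of the tested members, 13 had both a long and a short transcript with a mean of at least 50 estimated reads and a length ratio of at least 2. The longer transcript had the lower log2 ratio of irradiated to control reads in 7 of the 13, with a median difference of −0.01. In Kcnb2 the transcript of 14845 bases stood at −1.25 and that of 3963 bases at −0.55, and in Scn8a the transcript of 11436 bases stood at −0.63 and that of 2565 bases at 0.01. In Kcnh7, by contrast, the transcripts of 13321 and 2849 bases stood at −1.33 and −1.37. Salmon divides reads that fit several transcripts by estimation, so values of single transcripts are less certain than gene sums, and they carry no test.

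Genes that work beside these channels were examined by list. For all of these lists, the shares over all genes tested were 13.0% lower and 12.7% higher without the offset, and 1.69% and 2.35% with it. At an unadjusted p under 0.05 with the offset, 11.7% of all genes were lower and 15.9% higher. Whether any list differed from all genes was not tested. Of 21 tested genes for calcium stores, pumps and exchangers, 5 were lower and 0 higher, and with the offset 1 was lower. That gene was Slc8a1, the sodium-calcium exchanger, with 65.0 and 49.4 TPM in control, 21.8, 18.9 and 29.97 TPM in irradiated libraries and log2 fold changes of −1.01 without and −1.05 with the offset (adjusted p = 0.0131 and 0.0397 by edgeR). Ryr3, a calcium release channel of the endoplasmic reticulum, went from −2.10 (adjusted p = 0.00919 by edgeR) to −0.84 (adjusted p = 0.13).

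Of 13 tested cation channel genes outside the symbol rule, 3 were lower and 0 higher, and with the offset 0 passed the threshold (0 at an unadjusted p under 0.05). The 3 were Nalcn, which carries the sodium leak, and its subunits Unc79 and Unc80, with log2 fold changes of −0.64, −0.99 and −1.14 without and 0.06, −0.15 and −0.02 with the offset. Of 27 tested partners and anchors, 6 were lower and 1 higher, and with the offset 0 passed the threshold (3 lower and 2 higher at an unadjusted p under 0.05). Among them Ank3, which holds sodium and KCNQ channels at the axon initial segment, had −1.08 without and −0.31 with the offset.

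Of 7 tested sodium-potassium pump genes, 1 was lower and 2 were higher without the offset, and 1 was lower with it, Atp1b2 at −1.84 (adjusted p = 0.0477 by edgeR). Of 9 tested genes of the REST complex, which represses neuronal channel genes elsewhere, 1 was lower and 1 higher, and with the offset 0 passed the threshold (1 higher at an unadjusted p under 0.05). The 9 neuroendocrine markers, which have short transcripts with a median of 2413 bases, had 1 lower and 4 higher genes, and with the offset 0 past the threshold (1 lower and 4 higher at an unadjusted p under 0.05). The median log2 fold change of these markers was 0.54 without and 0.52 with the offset.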

How the data were processed

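Bulk RNA of 5 KP1 libraries was analysed. Single-cell samples of the series were not used here. The authors deposited, for each transcript, Salmon's estimated counts of reads (expected counts, not scaled for depth) and TPM, with the transcript's length and effective length in bases. The submitters' processing notes name Salmon 0.8.2, DESeq2 1.22.2 and mm10. Transcripts were matched to GENCODE M21, which named 112762 of 113116 (99.69%), and their counts were summed to 35056 genes and rounded. The libraries held 21185956 to 31036317 reads.

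Genes were tested with edgeR 4.0.16 in R 4.3.3 (filterByExpr, TMM, quasi-likelihood, no block, Benjamini-Hochberg adjustment). The length offset was a natural spline with 5 degrees of freedom of log2 CPM on the log2 of a gene's read-weighted transcript length, fitted per library. It removes any trend with length, technical or biological. Replicates 2 and 3 occur in both groups, and the labels do not say whether equal numbers mark a shared culture or day. The log2 ratios of replicate 2 to replicate 3, taken over genes, correlated at −0.196 between the groups. A single correlation cannot decide whether the libraries were paired, and the replicate block was therefore run as an alternative. Alternatives were DESeq2 1.42.0, RLE and upper-quartile scaling, no filter, coding genes alone, effective lengths, another length in the offset, the replicate block and each library left out. Copies were sought with BLAST 2.17.0. The main fit, the length offset, the replicate block and DESeq2 were run on simulated counts, and the other alternatives were not. A simulated trend with length was given to the main and length-offset fits alone. Tables and plots were made in Python 3.11.15 (matplotlib 3.10.9, scipy 1.17.1, pandas 2.3.3, numpy 2.4.6).

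The members, roles and lists were chosen with earlier results of these data known. Named were members past the threshold in either comparison, the 15 with the highest mean TPM, the 2 highest of each of 14 roles, and genes of the lists by the same measures. Some genes and sequences within this rule are not reported here. Kcnq1, Cacna1b, Cacna1f, Cacna1s, Scn1a, Scn2a, Scn4a, Scn7a, Scn9a, Scn10a and Scn11a were named after their values were seen.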

Additional observations from a re-analysis of the deposited data

How the results depend on the processing

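Counts of channel genes lower and higher were 15 and 1 without and 3 and 0 with the length offset. With upper-quartile or RLE scaling, coding genes alone or DESeq2 the count of lower genes stayed within 1.5 times of 15, and DESeq2 gave 2 higher genes, as did testing without a filter (also 2 with the offset, beside 5 lower). Effective lengths gave 13 lower and 1 higher, with 4 lower past the fold threshold, in place of 2 without and 1 with the offset (higher past it: 1 and 0). The length of the longest coding transcript in the offset left 1 lower. The replicate block, which gives irradiated replicate 1 no weight, left 3 lower and 0 higher, with 0 past the fold threshold either way, and with the offset 0 and 0 (6 and 3 at an unadjusted p under 0.05). Crossed pairs (control 2 with irradiated 3, control 3 with irradiated 2), an alternative added after seeing the data, gave 24 lower and 3 higher (1 and 0 past the fold threshold), and 5 and 5 with the offset. Leaving out 1 library in turn gave 0 to 21 lower and 0 to 3 higher, 0 to 5 and 0 to 1 past the fold threshold, and 0 to 4 lower and 0 to 2 higher with the offset. The members' median log2 fold change, −0.297, was 0.053 with the offset, 0.103 with the offset and the block, −0.166 without a filter and between −0.402 and −0.19 with a library left out. With the offset Kcnq3, Kcnc1 and Kcnb2 turned to 0.038, 0.006 and 0.035, and Kcnq3 to 0.108 with the block as well. Of the 16 genes called, 3 kept the call under the block and 0 without control replicate 2. For most of these settings the share of all genes called is not given here. A shift of all genes with the setting therefore cannot be told from one of the channel genes. The cause of these changes was not tested.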
